A study of Homo sapiens with 48 samples.

Results

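KCNA1 encodes a pore-forming alpha subunit of the Kv1 (Shaker-type) voltage-gated potassium channels. Its expression was followed here in HEK293 cells, a line derived from human embryonic kidney, after stimulation with angiotensin II (AII), epidermal growth factor (EGF) or both. KCNA1 was selected on its measured RNA level, which rose at 6 h under AII and under AII + EGF, in a comparison of all 8 groups of stimulus and time, so all of its values are a description and carry no p. Its relatives on either side, KCNA5 and KCNA6, were taken along for comparison, which makes 3 genes of 60610 listed, of which 19626 passed the filter on low counts. KCNA1 passed this filter, and KCNA5 and KCNA6 did not.

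Kv1 alpha subunits assemble into tetrameric channels that open on depolarisation, and cytoplasmic Kv beta subunits (KCNAB1, KCNAB2 and KCNAB3) bind to them. KCNA1 is best known from axons of neurons, where it limits excitability, and its mutations cause episodic ataxia. KCNA5 carries a repolarising current in the atria of the heart and is found in vascular smooth muscle. The AII receptor type 1 (AT1R, gene AGTR1) couples to G proteins, whereas the EGF receptor (EGFR) is a receptor tyrosine kinase, and the study asked how transcription responds when both are active at the same time.

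All 8 groups were made from HEK293 cells that carried a stably transfected AT1R expression plasmid. According to the methods of the study, the cells for sequencing were 1 clone, named B6, that had been selected with puromycin and kept with losartan, an AT1R blocker. Cells without serum received no stimulus (control), AII (1 nM), EGF (10 µg/L) or AII + EGF for 6 h or 24 h, and every group had 6 libraries of poly(A)-enriched RNA. Reads of the plasmid and of the native AGTR1 gene cannot be told apart in these counts. The HEK293 markers NEFL, NEFM, VIM, KRT8, KRT18 and LIN28B had counts in every library used, with a summed level of 3360 to 10890 CPM (counts divided by the scaled library total in mega, M), whereas PTPRC, the defining marker of leukocytes, reached at most 0.0703 CPM. Among the other markers of foreign cell types COL1A1 lay at 11.1 to 44.7 CPM, and MYH11, PECAM1 and ALB at most at 2.16 CPM.

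Of the 48 libraries, 38 were used. In 4 of the 1128 pairs of libraries the counts differed by less than sampling noise (chi-square per degree of freedom 0.397 to 0.505), and these 8 libraries were left out. In 3 of those pairs the partners carry different labels, namely control 6 h with EGF 24 h, control 6 h with AII 24 h, and EGF 6 h with AII + EGF 6 h. It cannot be said which label, if either, is right. None of the 703 pairs among the 38 libraries came that close (lowest value 2.02). The 8 libraries of the near-identical pairs held 34.7 to 36.2 M counts, more than any library used. Another 2 libraries went against their labels: over 2091 genes that differed between AII and AII + EGF at 6 h, KCNA1 not included, AII replicate 6 lay at 0.847 and AII + EGF replicate 6 at 0.00993 of the way from the AII mean to the AII + EGF mean. These 2 libraries were left out and not relabelled. The remaining groups held 4 control, 5 AII, 3 EGF and 4 AII + EGF libraries at 6 h, and 6 control, 5 AII, 5 EGF and 6 AII + EGF libraries at 24 h. Library totals ranged from 17.8 M to 30 M counts, with a mean of 22.3 M (SD 3.02 M, n = 38), and 1 count was worth 0.0345 to 0.0538 CPM.

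KCNA1 (ENSG00000111262) lies on chromosome 12 at 4909905 to 4918256 of GRCh38, between KCNA6 (ENSG00000151079, 4809334 to 4851112) and KCNA5 (ENSG00000130037, 5043879 to 5046788), by the RefSeq annotation. The gene starts, taken throughout as the lower coordinate, are 101 kb and 134 kb away from that of KCNA1.

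At 6 h KCNA1 was barely detected in control cells. The 4 control libraries held 3, 3, 0 and 2 counts, a mean of 0.0960 ± 0.0707 CPM (SD, n = 4). With AII alone the libraries held 59, 55, 56, 45 and 35 counts, or 3.10, 2.95, 2.96, 2.27 and 1.40 CPM (mean 2.54 ± 0.714, SD, n = 5). With EGF alone they held 70, 73 and 68 counts, or 2.69, 2.77 and 2.60 CPM (mean 2.69 ± 0.0873, SD, n = 3). Thus AII and EGF brought KCNA1 to overlapping levels, both well apart from the controls, and AII replicate 5 was the lowest of the stimulated libraries.

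With AII + EGF for 6 h KCNA1 reached 426, 392, 336 and 362 counts, or 20.8, 20.99, 17.98 and 18.7 CPM (mean 19.6 ± 1.51, SD, n = 4). No other library used came near this range. In bulk RNA, a rise in every cell and a rise in few cells cannot be told apart. The mean was 204 times that of the controls. The ratio of the summed counts (1516 against 8), each over its summed scaled library totals, was 202, with a 95% counting interval of 102 to 467.7. The corresponding ratios of means were 26.4 for AII (summed counts 250 against 8, interval from these counts 12.66 to 59.32) and 27.98 for EGF (211 against 8, interval 13.74 to 64.72). The wide intervals reflect the 8 counts of the control group, and they cover counting error only.

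Against each single stimulus the joint level was 7.73 times that of AII (interval 6.957 to 9.134) and 7.30 times that of EGF (interval 6.324 to 8.48), without overlap between libraries. The titles of the libraries fall into consecutive runs, each holding libraries of 1 time point, and 3 runs held both AII and AII + EGF libraries at 6 h. Within these runs the ratio of AII + EGF to AII was 6.90, 6.87 and 13.35, the last in the run with AII replicate 5. The ratio of AII + EGF to EGF was 6.58 and 7.2 in the 2 runs that held both.

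**Figure D1:**
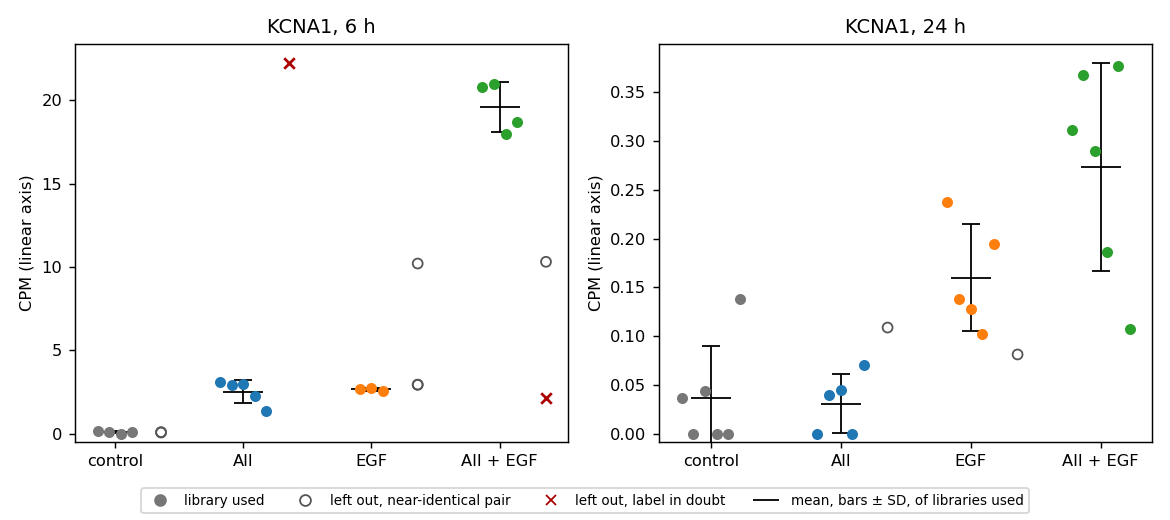
KCNA1 expression in CPM (linear axis, a different range in each panel) in every library by stimulus at 6 h (left) and 24 h (right). Filled points are the 38 libraries used, black lines their mean and bars the SD; open circles are libraries of near-identical pairs and crosses the 2 libraries at odds with their labels, both scaled with all 48 libraries. AII + EGF libraries used at 6 h lie at 17.98 to 20.99 CPM, and at 24 h no library exceeds 0.377 CPM.

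In the fit over all groups, the log2 change of KCNA1 against control at 6 h was 4.62 ± 0.40 (SE) for AII, 4.71 ± 0.42 for EGF and 7.58 ± 0.38 for AII + EGF. AII + EGF exceeded EGF by 2.87 ± 0.28 and AII by 2.96 ± 0.24 on this scale. How the joint response compares with the single ones depends on the scale. On the log2 scale the joint change was smaller than the sum of the single changes, with an interaction of -1.75 ± 0.53. On the linear scale it was larger: AII + EGF added 19.5 CPM to the control level, whereas the single changes summed to 5.03 CPM. The excess over this sum was 14.5 ± 0.820 CPM (SE), and the joint change was 3.88 times the sum.

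**Figure D2:**
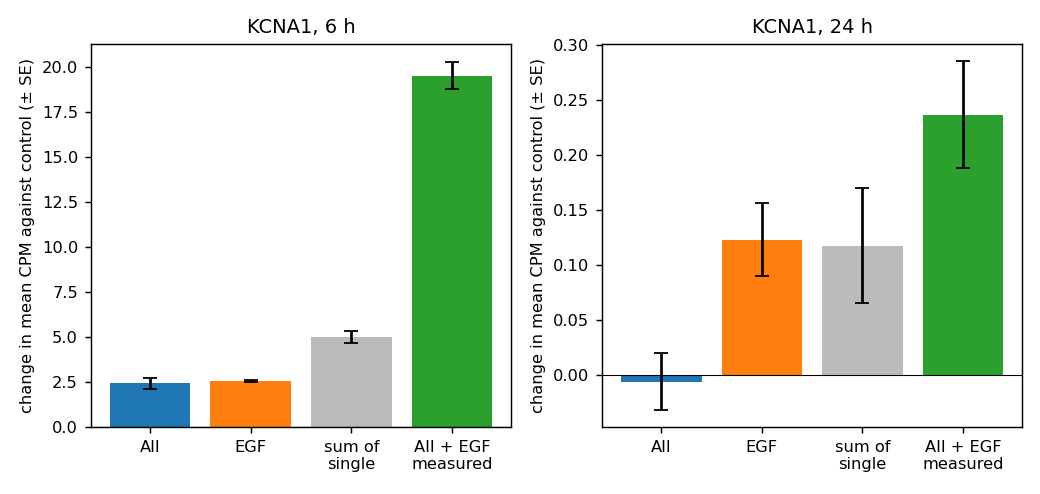
Change in mean KCNA1 expression against control in CPM (bars from 0, error bars ± SE from the spread between libraries) for AII, EGF, the arithmetic sum of both single changes, and AII + EGF as measured, at 6 h (left) and 24 h (right; a different axis range). At 6 h the measured joint change is 19.5 CPM against a sum of 5.03 CPM, and at 24 h 0.237 against 0.118 CPM.

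The 10 libraries left out bear on these values. With all 48 libraries in the fit, the mean at 6 h was 5.81 ± 8.08 CPM for AII, 4.01 ± 3.04 for EGF and 14.95 ± 7.32 for AII + EGF (SD, n = 6 each), and the log2 changes against control were 5.84, 5.32 and 7.21. The linear excess was then 5.23 CPM and the interaction -3.95. The direction of each change against control at 6 h was the same with and without these libraries.

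At 24 h KCNA1 was low in every group. The groups at 24 h were among those the gene was chosen on, so these values too are a description, and KCNA1 passed the filter on low counts through its levels at 6 h, since no library at 24 h held more than 9 counts. Counts ran from 0 to 4 in the control libraries (median 0.0185 CPM, highest 0.138). With AII they were 0, 1, 1, 0 and 2. With EGF they were 5, 3, 3, 2 and 5. With AII + EGF they ran from 3 to 9 (lowest 0.108 CPM, median 0.301, highest 0.377). The means were 0.0366 ± 0.0537 CPM in control (SD, n = 6), 0.0311 ± 0.0306 with AII (n = 5), 0.160 ± 0.0548 with EGF (n = 5) and 0.273 ± 0.106 with AII + EGF (n = 6). The highest AII + EGF library at 24 h thus lay below the lowest of the stimulated libraries at 6 h, and the AII + EGF and control libraries at 24 h overlapped.

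Against control at 24 h, the log2 difference of KCNA1 with AII + EGF was 2.56 ± 0.52. The ratio of the means was 7.47. The ratio of the summed counts, 36 against 6, each over its summed scaled library totals, was 6.46, with a counting interval of 2.697 to 18.76. The log2 difference lay between 2.56 and 2.73 in all 8 other fits and between 2.34 and 3.60 when any single library was left out. The value of 3.60 was reached without control replicate 6, which held 4 of the 6 control counts. In the title run of that library AII + EGF lay at 0.108 CPM, below control (0.138) and EGF (0.195), with 1 library each. In the other title runs at 24 h AII + EGF lay above control, with means of 0.339, 0.238 and 0.377 CPM against 0.0185, 0.0222 and 0 CPM. With EGF alone the log2 difference from control was 1.84 ± 0.59, and it ran from 1.62 to 2.88 with any single library left out, the highest again without control replicate 6. With AII alone it was -0.24 ± 0.79, and 0.80 without that control library.

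AII + EGF lay above AII alone at 24 h by 2.80 ± 0.57 on the log2 scale, without overlap between the libraries. Between AII + EGF and EGF at 24 h the log2 difference was 0.72 ± 0.43. The counting interval of the ratio of summed counts, 0.9143 to 3.091, holds both equal levels and a clear rise. The interaction at 24 h was 0.96 ± 0.95 on the log2 scale. The linear excess at 24 h was 0.119 ± 0.0561 CPM, with a joint change of 0.237 CPM against a sum of 0.118 CPM.

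From 6 h to 24 h the response of KCNA1 to AII + EGF fell by 5.02 on the log2 scale, that to AII fell by 4.86, and that to EGF fell by 2.87. Ordered by mean level, the 8 groups ran from AII + EGF at 6 h through EGF and AII at 6 h, AII + EGF and EGF at 24 h, control at 6 h and control at 24 h to AII at 24 h. The only neighbours in this order without overlap between libraries were AII + EGF with EGF at 6 h, and AII at 6 h with AII + EGF at 24 h. Between libraries of one group the coefficient of variation was 3.25% to 28.1% in the stimulated groups at 6 h, and 34.3% to 147% in the groups with few counts.

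Neither relative next to KCNA1 was expressed to a measurable extent. KCNA6 had 0 counts in all 48 libraries, which over the 38 used allows a level of up to 0.00354 CPM (3 counts). KCNA5 had 1 count in the 38 libraries, in AII 24 h replicate 3, and 6 counts in 4 of the 48 libraries. A response of either gene was not detectable at this depth, and no test was possible.

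A long non-coding gene, AC005906.2 (ENSG00000256654), overlaps KCNA1 on the same strand. In the annotation of GRCh37, 568 of its 9655 exon bases are shared with the 7985 exon bases of KCNA1. It had 0 counts in the 4 control libraries at 6 h, 4 counts in 5 AII libraries, 7 in 3 EGF libraries and 43 in 4 AII + EGF libraries, against 8, 250, 211 and 1516 for KCNA1. At 24 h its counts were 4, 1, 1 and 6 against 6, 4, 18 and 36. At 6 h both genes were highest with AII + EGF. AC005906.2 did not pass the filter and was not tested, and how reads in the shared bases were divided between both genes was not tested.

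**Figure D3:**
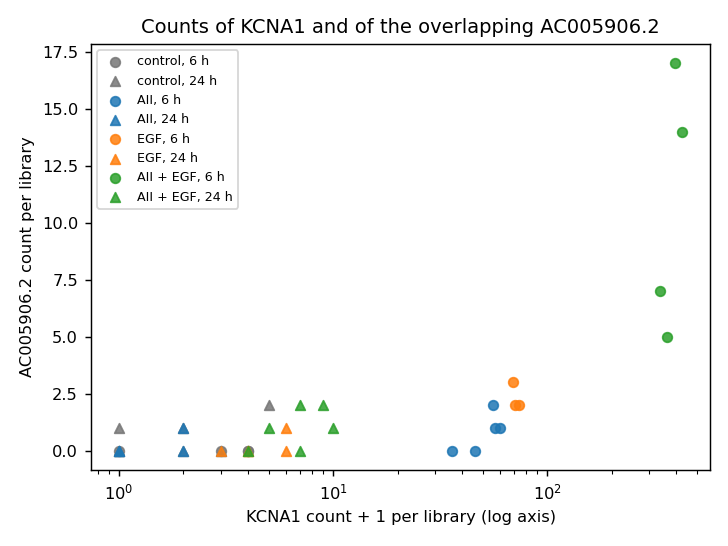
Counts of AC005906.2 (linear axis) against counts of KCNA1 plus 1 (log axis) in each of the 38 libraries used; colours mark the stimulus, circles 6 h and triangles 24 h. The 4 AII + EGF libraries at 6 h lie apart, with 336 to 426 counts of KCNA1, and hold 43 counts of AC005906.2 in sum.

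The other potassium channel genes gave a setting for KCNA1. The list held 95 genes without KCNA1, of which 50 were tested. All 50 also passed the filter on low counts without the AII + EGF libraries at 6 h. A gene was called at an adjusted p under 0.01 (edgeR quasi-likelihood test) and at least 1.5-fold. At 6 h with AII, 0 were called by edgeR and 0 by DESeq2, with 13 at an unadjusted p under 0.05. Of all 19626 genes 0.617% were called higher and 0.0306% lower, and 2367 had an unadjusted p under 0.05. With EGF 4 were called higher and 1 lower, against 2.09% and 0.459% of all genes. With AII + EGF 19 were called higher and 4 lower, against 8.33% and 8.22% of all genes. These 23 calls were 14 with 40 libraries, 15 with all 48, and 10 among genes above 5 CPM. They were 17 to 21 when any single library of either group was left out. The shares of all genes called under these other settings are not given here, so these numbers cannot be set against them. The median log2 change of the 50 genes with AII + EGF was 0.38, against -0.03 over all genes. At 24 h with AII, 0 were called by edgeR and 0 by DESeq2, and 0 had an unadjusted p under 0.05; of all genes 0% were called by edgeR and 0 by DESeq2, with 343 at an unadjusted p under 0.05. With EGF 0 were called higher and 1 lower, against 0.27% and 0.127% of all genes. With AII + EGF 4 were called higher and 2 lower, against 3.14% and 2.53% of all genes (median 0.03 against -0.02; 10 calls with the title runs as a block). The comparisons of one time point share their control libraries.

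Among the Kv1 alpha subunits other than KCNA1, only KCNA3 of 7 was tested. KCNA3, a channel best known from T cells, held 1.07, 2.36, 0.856 and 0.516 CPM with AII + EGF at 6 h and 0.798, 0.274, 0.215 and 0.570 CPM in control. The groups overlapped, and AII + EGF replicate 2 stood highest. The log2 change was 1.36 ± 0.41 (adjusted p 0.0082, edgeR), but without that library it was 0.81 (adjusted p 0.134), and the call held in 3 of 8 other fits. With AII it was 0.49 ± 0.41 and with EGF 0.06 ± 0.46 at 6 h, neither called, and at 24 h with AII + EGF -0.53 ± 0.37, not called. KCNA2 and KCNA7, with at most 12 counts in a library, KCNA4, with at most 2, and KCNA10, with 0, were not tested.

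KCNAB2, the most abundant of the Kv beta subunits here, was lower where KCNA1 was high. With AII + EGF at 6 h it held 9.03, 10.8, 8.88 and 9.86 CPM, and in control 24.9, 25.5, 22.3 and 25.3 CPM. All AII + EGF libraries lay below all controls (log2 change -1.35 ± 0.13, adjusted p 8.78e-11, edgeR). With EGF its change was -0.62 ± 0.14 (adjusted p 0.00216, edgeR; 0.0871 with 40 libraries, 0.0177 without EGF replicate 3 and 0.0218 without EGF replicate 4). With AII its change was -0.38 ± 0.12, not called (adjusted p 0.0871, edgeR). At 24 h with AII + EGF it was 0.18 ± 0.10, not called. The difference between the responses at 24 h and 6 h was 1.53 ± 0.16 (adjusted p 4.09e-09, edgeR), in a comparison that called 13.9% of all genes. KCNAB1 and KCNAB3 were not called in any comparison with control.

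Other voltage-gated alpha subunits were called higher with AII + EGF at 6 h in 9 of 15 tested genes and lower in none, against 8.33% and 8.22% of all genes. KCND3, which carries transient outward current, was the most changed of the named ones. It held 3.76, 3.59, 2.09 and 3.10 CPM with AII + EGF against 0.0876 to 0.215 CPM in control (log2 change 4.25 ± 0.45, adjusted p 9.54e-10, edgeR). With EGF alone its change was 2.72 ± 0.49 (adjusted p 0.000202, edgeR; 0.0364 with 40 libraries), and with AII 1.12 ± 0.52, not called. KCND2, of the same subfamily, was higher with EGF at 6 h by 2.18 ± 0.30 (adjusted p 2.19e-06, edgeR). Unlike KCND3, it had a lower mean with AII + EGF (2.42 CPM) than with EGF (3.43 CPM), with overlap between libraries. KCNQ5, which carries M-type current, was higher with EGF by 0.86 ± 0.11 (adjusted p 9.63e-07) and with AII + EGF by 1.37 ± 0.11 (adjusted p 6.22e-13; edgeR for both).

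Two-pore channels, which set the resting conductance, were called higher with AII + EGF at 6 h in 6 of 7 tested genes, against 8.33% of all genes. KCNK13 held 2.49, 3.70, 2.67 and 3.92 CPM against 0.479, 0.410, 0.376 and 0.263 CPM in control, without overlap (log2 change 3.06 ± 0.33, adjusted p 1.45e-09, edgeR). KCNK1 was higher by 1.23 ± 0.11 (adjusted p 1.65e-11, edgeR), and KCNK2 was higher with EGF by 1.00 ± 0.19 (adjusted p 0.000503, edgeR). The mean of KCNK2 was 9.20 CPM with EGF and 7.70 CPM with AII + EGF, with overlap between libraries. Inward rectifiers were called higher in 2 of 9, against the same 8.33%. Of the calcium- and sodium-activated channels, 3 of 9 were called lower with AII + EGF at 6 h and none higher, against 8.22% and 8.33% of all genes. These were KCNN1, KCNN3 and KCNN4, small- and intermediate-conductance channels named after their values were seen, with log2 changes of -1.35 ± 0.34, -2.32 ± 0.58 and -1.07 ± 0.32 (adjusted p 0.00182, 0.0018 and 0.00827, edgeR). KCNN3 lay near the floor, with 8 counts in sum with AII + EGF (0 to 5 per library) and 44 in control. Whether these 3 calls hold one by one in other fits was not tested. None of 4 silent Kv subunits was called, and 1 of 2 accessory subunits was called higher.

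At 24 h with AII + EGF, KCNMA1, the large-conductance calcium-activated channel, was higher by 1.90 ± 0.34 (adjusted p 8.56e-05), with libraries at 0.646 to 2.35 CPM against 0.177 to 0.628 CPM in control. KCNJ11, the pore of ATP-sensitive channels, was higher by 0.98 ± 0.12 (adjusted p 4.32e-07), and KCNH2, which carries the rapid delayed rectifier of the heart, by 1.05 ± 0.20 (adjusted p 0.000164). KCNC1 was lower (log2 change -0.80 ± 0.11, adjusted p 2e-06), as was KCNN4 (-1.38 ± 0.21, adjusted p 1.15e-05; edgeR for all). KCNN4 was also the gene called lower with EGF at 24 h (-1.02 ± 0.22, adjusted p 0.00831, edgeR). That call was lost in 7 of 11 fits without a single library and in 3 of 8 other fits, with adjusted p up to 0.173.

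**Figure D4:**
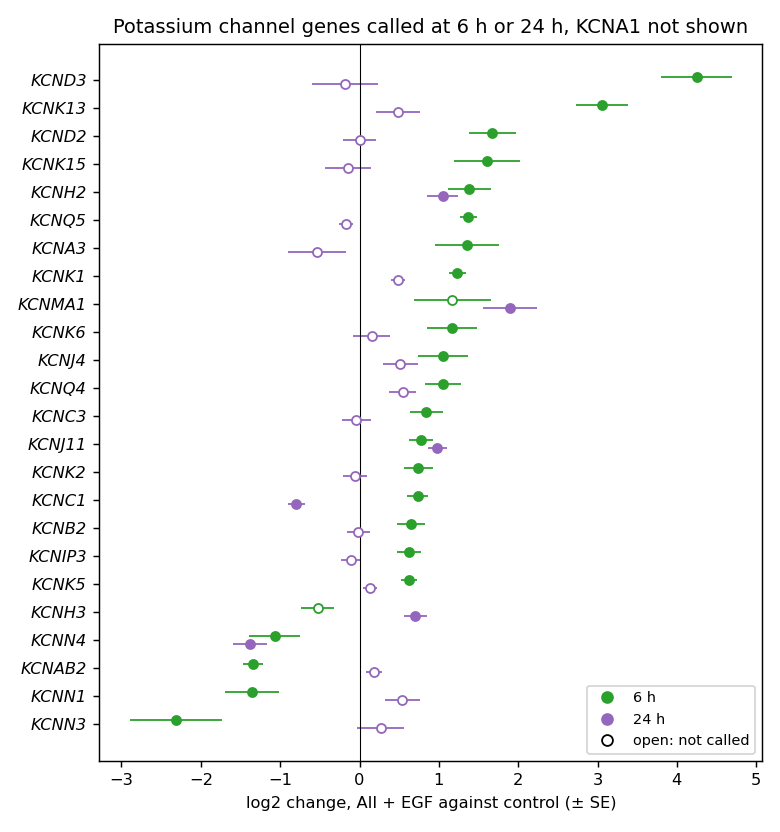
Log2 change with AII + EGF against control (points, bars ± SE; 38 libraries) for 24 potassium channel genes other than KCNA1 that were called at 6 h (green) or 24 h (purple); open points were not called. KCND3 and KCNK13 lie farthest to the right at 6 h, at 4.25 and 3.06, and KCNN3 farthest to the left at -2.32. KCNN3 held 8 counts in sum over the AII + EGF libraries at 6 h.

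The receptors of both stimuli moved as well. AGTR1, read from the plasmid and the native gene together, had a mean of 10040 ± 435.9 CPM with AII + EGF at 6 h against 4271 ± 239.4 CPM in control (SD, n = 4 each; log2 change 1.23 ± 0.18, adjusted p 4.93e-07, edgeR). At 24 h it was higher by 0.83 ± 0.14 (adjusted p 5.28e-05, edgeR; 0.01 with only the 2 groups fitted). EGFR was higher at 6 h by 0.75 ± 0.14 with EGF (adjusted p 0.000253; 0.0191 with 40 libraries and 0.021 with all 48) and by 1.29 ± 0.13 with AII + EGF (adjusted p 3.49e-10, edgeR for all). At 24 h with AII + EGF its change was -0.06 ± 0.10, not called. The summed HEK293 markers ran from 8466 to 10810 CPM with AII + EGF at 6 h and from 3360 to 5737 CPM in control, with NEFM, KRT18 and LIN28B called higher, and the summed markers of other cell types ran from 12.04 to 17.72 and from 12.96 to 15.38 CPM. Their part in the rise of KCNA1 was not tested.

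RefSeq lists 37 other genes within 1 Mb of KCNA1, of which 18 were matched by name and 12 tested. With AII or EGF alone 0 were called at either time by edgeR and by DESeq2, with 0 and 1 at an unadjusted p under 0.05 at 6 h and 1 and 2 at 24 h. Of all 19626 genes, 2367 and 3489 had such a p at 6 h, and 343 and 2876 at 24 h. With AII + EGF at 6 h 2 were called higher, against 8.33% of all genes, and 1 of these, GALNT8, passed the filter on low counts only through that group. At 24 h 1 was called lower, against 2.53% of all genes. The tested genes directly next to the cluster of KCNA6, KCNA1 and KCNA5 were GALNT8, an acetylgalactosaminyltransferase-like gene, with a start 189.5 kb before that of KCNA1, and NTF3, which encodes a neurotrophin, with a start 520.4 kb behind it. In the annotation of GRCh37 the spans of GALNT8 and KCNA6 overlap on the same strand with 0 shared exon bases.

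GALNT8 held 15, 18, 10 and 19 counts with AII + EGF at 6 h, or 0.732, 0.964, 0.535 and 0.981 CPM, and 3, 0, 2 and 2 counts in control. These groups did not overlap, with a log2 difference of 3.15 ± 0.50, given as a description since the filter passed GALNT8 only through the higher group. With EGF the difference was 1.44 ± 0.60 and with AII 0.76 ± 0.61, and at 24 h with AII + EGF it was -0.06 ± 0.42. Like KCNA1 it was thus highest with AII + EGF at 6 h, at a mean of 0.803 CPM. NTF3 was not called with AII + EGF, at 0.55 ± 0.49 at 6 h and 0.22 ± 0.30 at 24 h. TIGAR, a fructose bisphosphatase that starts 588.7 kb before KCNA1, was higher with AII + EGF at 6 h by 0.67 ± 0.17 (adjusted p 0.00191, edgeR; 0.0235 with 40 libraries and 0.0127 without control replicate 6). C12orf4, 422.2 kb before KCNA1, was lower at 24 h (log2 change -0.61 ± 0.12, adjusted p 0.000363, edgeR; 0.0155 with only the 2 groups fitted), with overlap between the groups and a change under the 1.5-fold minimum when any of 5 libraries was left out.

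**Figure D5:**
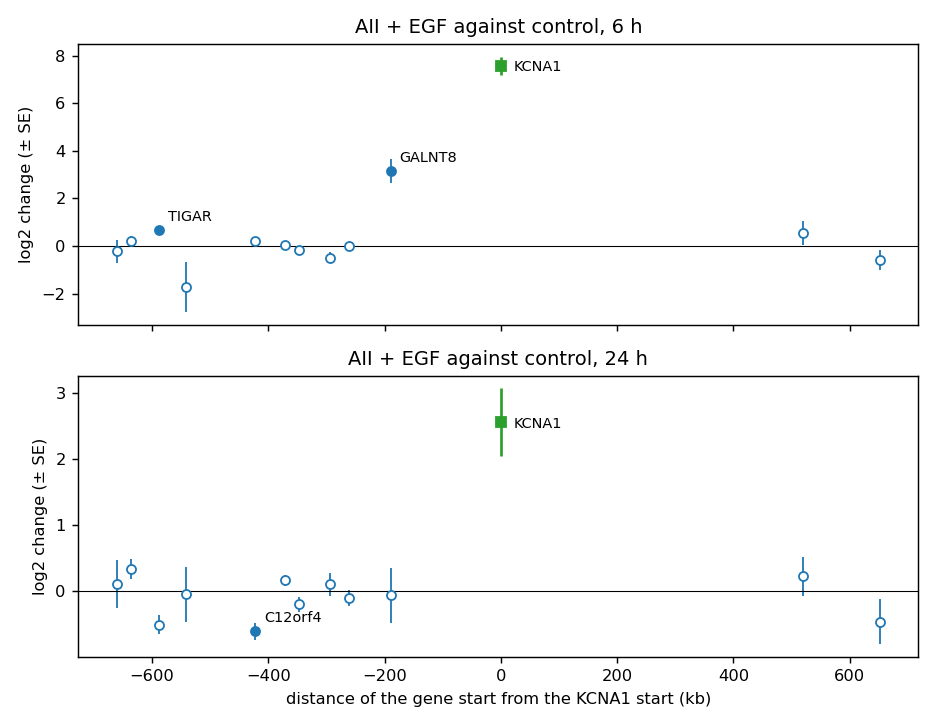
Log2 change with AII + EGF against control (± SE; 38 libraries) of the 12 tested neighbours (circles; filled where called) and of KCNA1 (square), by distance of the gene start from the start of KCNA1 in kb, at 6 h (top) and 24 h (bottom; a different axis range). At 6 h KCNA1 lies at 7.58 and GALNT8 at 3.15, and at 24 h GALNT8 lies at -0.06. GALNT8 passed the filter on low counts only through the AII + EGF libraries at 6 h, so its filled point there is a description.

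The genes with the pattern most like that of KCNA1 were sought by Pearson's r of log2(CPM + 0.5) over the 38 libraries, as a description. The 10 highest of 19625 genes were INSIG1, KCTD12, LRRC8B, FAM3C, GRB10, CRY1, MFSD2A, AL139385.1, ATP1B1 and TNC, with r from 0.942 to 0.953. The median r over all genes was -0.05, and 83 genes exceeded 0.9. The libraries share their stimuli, so r mostly tells which genes were high with AII + EGF at 6 h. All 10 were higher than control there, from a log2 change of 1.02 ± 0.09 for ATP1B1, a sodium pump subunit, to 3.38 ± 0.21 for MFSD2A, a lipid transporter. None of the 10 changed as much as KCNA1. At 24 h their changes with AII + EGF lay between 0.04 for GRB10 and 0.45 for INSIG1, a regulator of sterol synthesis. None reached the 1.5-fold minimum, so none was called, against 3.14% of all genes called higher and 2.53% lower. INSIG1 still lay above control without overlap, at 321 ± 26.4 against 235 ± 22.5 CPM (SD, n = 6 each), and the others overlapped control. The 24 h libraries entered r, which favoured genes with small changes there. The choice of these 10 was not stable: Spearman's rho kept 1 of them, the 6 h libraries alone kept 1, and a pseudocount of 2 CPM kept 6.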

How the data were processed

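The authors enriched poly(A) RNA, sequenced it paired-end, aligned reads with HISAT2 2.1.0 to hg38 and counted them per gene with featureCounts, per the labels and the methods of the study. The deposited values are raw counts per gene and library, and 0 columns were set aside. Whether counting used strand or reads with several hits is not given in the sources used here. The 48 libraries were grouped by their labels, 10 were left out, and counts of the other 38 were scaled by trimmed mean of M values to CPM.

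edgeR 4.0.16 in R 4.3.3 (quasi-likelihood, one fit over 8 groups, no covariates, Benjamini-Hochberg adjustment over 19626 genes) gave all adjusted p-values. Genes were called at an adjusted p under 0.01 and at least 1.5-fold. The SE of each log2 change was derived from the same test, as the absolute change over the square root of its F statistic. It restates that test and is not a separate estimate of sampling error. For KCNA1, with few control counts, it serves only as a description. The study also asked for calls by DESeq2 and for more than 5 CPM. DESeq2 1.42.0 and that minimum were used as alternatives here, since most channel genes lie under it. Both tools were tested on simulated data, with changes only in genes above 5 CPM and the same dispersion for every gene. Calls of genes under that level are thus not covered by the simulation. Intervals of ratios are 95% counting intervals, conditional on the summed counts. They belong to the ratio of summed counts over summed scaled library totals, not to the ratio of means printed beside them. The labels do not say that libraries of a group are separate cultures, so p-values measure the spread between these libraries, which may be technical.

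KCNA1, its relatives, the gene lists and the tests were chosen with earlier results of these data known. Beyond the members, the text names listed genes called against control (at most the 5 with the smallest adjusted p per comparison, with Kv1 alpha subunits, Kv beta subunits and both receptors always), the 10 genes most like KCNA1, and neighbours within 1 Mb that were called or lie next to the cluster. Tests of KCNA1 at 24 h were planned and are not reported, since the gene was chosen on those groups too. A search for promoter motifs at KCNA1 was planned and not run. A permutation test of KCNA5 and KCNA6 could not be run on 1 and 0 counts. Some results of listed genes are not reported here.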

Additional observations from a re-analysis of the deposited data

Results flagged for a closer look

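In 21 groups of 4 to 6 libraries checked for KCNA1, AGTR1 and EGFR, 3 held a library far from the others. Chance alone flags about 1 in 20 groups where values are normally distributed. That rate need not hold for KCNA1 at 24 h, where counts were few. The 3 libraries were control 24 h replicate 6 for KCNA1 (0.138 CPM), 1 AII 24 h library for AGTR1 (5355 CPM) and 1 AII + EGF 24 h library for AGTR1 (8087 CPM).

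The response to AII + EGF differed between 24 h and 6 h, by an edgeR test of the difference itself, for channel genes that had been called at one time or the other. The same test called 13.9% of all genes. The log2 response was lower at 24 h by the following values: KCND3 -4.43, KCNK13 -2.57, KCNA3 -1.89, KCNK15 -1.75, KCND2 -1.67, KCNQ5 -1.54, KCNC1 -1.53, KCNK1 -0.75 and KCNIP3 -0.73. It was higher at 24 h for KCNN3 (2.58), KCNN1 (1.89), KCNAB2 (1.53) and KCNH3 (1.23). The 6 h call of KCNA3 held in 3 of 8 other fits and was lost without AII + EGF replicate 2 (adjusted p 0.134, edgeR).

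Among libraries left out, 6 stimulated ones at 6 h held KCNA1 above every 6 h control. EGF replicate 1 lay at 10.2 CPM and its near-identical partner, AII + EGF replicate 4, at 10.3 CPM. EGF replicate 2 lay at 2.95 CPM and its near-identical partner, EGF replicate 6, at 2.95 CPM. AII replicate 6 lay at 22.3 CPM and AII + EGF replicate 6 at 2.14 CPM. Over 739 genes that differed between EGF and AII + EGF, EGF replicate 1 and AII + EGF replicate 4 lay at 0.58 and 0.582 of the way from the EGF mean to the AII + EGF mean, and EGF replicates 2 and 6 at 0.0116 and 0.0108.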

How the results depend on the processing

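Of 247 values under other settings than leaving out a library, 204 counted as unchanged. For KCNA1 at 24 h this meant the same direction and the same call. For its 6 h changes and for the excess it meant a shift under the SD between libraries. For numbers of genes and counts it meant at most a 1.5-fold difference. Of the others, 34 shifted by more, 1 reversed its sign, and 8 were KCNA1 values at 24 h that lost a call in tests not reported here. With all 48 libraries the 24 h changes of KCNA1 were 0.28 for AII (a reversed sign), 2.58 for AII + EGF against control and 2.30 against AII; at 6 h they were 5.84, 5.32 and 7.21 for AII, EGF and AII + EGF, 1.89 and 1.36 for AII + EGF against EGF and AII, and -3.95 for the interaction. The 6 h excess was 5.23 CPM, KCNA5 had 6 counts, and channel calls were 1 with AII and 15 with AII + EGF at 6 h and 0 with EGF at 24 h. With 40 libraries the 24 h values were 2.56 and 2.79; at 6 h 5.83 for AII, 7.29 for AII + EGF, 2.58 and 1.46 against EGF and AII, and -3.25 for the interaction; channel calls were 3 with EGF and 14 with AII + EGF at 6 h and 0 with EGF at 24 h, with 1 neighbour called at 6 h. Fitting only the groups compared gave 2.58 and 2.81 at 24 h, 0 channel calls with EGF and 0 neighbours. With title runs as a block, AII + EGF at 6 h gave 7.42 against control and 2.75 against EGF, and channel calls were 1 with AII at 6 h and 10 with AII + EGF at 24 h. Above 5 CPM, channel calls at 6 h were 3 with EGF and 10 with AII + EGF, and 1 neighbour. Without a fold minimum, 2 channel genes were called with EGF at 24 h. On the CPM scale the 24 h differences were 0.237 against control and 0.242 against AII. Without scaling factors the 6 h excess was 12.98 CPM. Of the 10 most similar genes, 1, 6 and 1 were kept by Spearman's rho, a pseudocount of 2 CPM and the 6 h libraries. Leaving out one library at a time, the 6 h changes of KCNA1 ran from 4.26 to 4.91 for AII, 4.35 to 4.999 for EGF and 7.22 to 7.87 for AII + EGF, with an interaction of -2.04 to -1.40; the 24 h change for AII ran from -0.73 to 0.80 and the interaction from -0.0716 to 1.45. In these fits channel calls with EGF at 24 h ran from 0 to 2, neighbours called from 1 to 2 at 6 h and from 0 to 2 at 24 h, and GALNT8 at 24 h from -0.34 to 0.12. Single genes named in the text kept direction and call in 645 of 685 values. These values include the 10 most similar genes and GALNT8 with AII + EGF at 6 h. Those genes were chosen, or passed the filter, through their high level there, so this share was partly fixed in advance. The causes were not tested. Depth limits KCNA1 at 24 h, where libraries held at most 9 counts. No paired analysis was possible because the labels give no replicate numbers, and the runs of titles used as a block above are not pairs that the labels name.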
